A study of Mus musculus with 9 samples.

Results

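AUG triplets and the nucleotides around them were examined in conserved 5′ untranslated regions of mouse messenger RNA. The members are the A of every place where consecutive positions of a transcript read A, T and G (T stands for U of the RNA), together with every A and C from 6 positions before to 6 positions after that A. Counted once per transcript position, there were 267 such A nucleotides in 63 of the 69 transcripts measured. With their surroundings they made up 1501 of 13550 measured A and C nucleotides, of which 674 were other A and 560 were C. The remaining comparison sets were the 5457 other A of all transcripts and, among them, the 698 A of AUA, AUC and AUU triplets, which share the first 2 bases with AUG.

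Total RNA came from E14TG2a cells, a mouse embryonic stem cell line, and was probed with dimethyl sulfate (DMS). All 3 groups held 3 samples. In the first group cells were depleted of ATP by 10 min with 10 mM 2-deoxyglucose and 10 mM sodium azide before probing. In the second they were untreated, and in the third the RNA was refolded in vitro. In both in-cell groups probing took 6 min at 37 °C, with 1.6% DMS and bicine at 250 mM.

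DMS methylates the pairing face of A and C where a base is not held in a pair or covered by a protein, and reverse transcription turns a methylated base into a mismatch that sequencing can count. A scanning ribosome enters at the cap and searches the 5′ untranslated region for an AUG. A purine 3 positions before the A and a G right after the triplet, the Kozak context, favour initiation there. AUG triplets upstream of the coding region can start short upstream open reading frames, which often lower translation of the main frame, and RNA structure and ATP-dependent helicases can influence which AUG is reached.

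The following stretches of 13 nt show the AUG triplets whose A changed most after refolding, with the AUG in capitals. They are read 5′ to 3′ on the transcript strand from the deposited table, and each name gives the gene and the position of the A counted from the first base of the RefSeq transcript. The first 6 had the largest called rises and the next 6 the largest called falls.
Ext1 A312: tgcaagATGcact
Ddx17 A369: agtgtaATGtgtt
R3hdm1 A434: atgaggATGtctg
Azin1 A249: cagcctATGgccc
Ptp4a2 A100: ccttcaATGccca
D830031N03Rik A658: ggacgaATGgcta
Mbd5 A1263: aaatgaATGgagg
Dicer1 A298: cagctcATGaccc
Mapk6 A171: agtaagATGgacg
Bcl2 A810: agatcgATGgtgt
Cnot3 A336: gagagtATGaaga
Mbd5 A803: taaagcATGtggc

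Reactivity is given in CPM, the counts at a nucleotide per 1000000 counts of its amplicon in that sample. CPM describe how signal was spread along an amplicon, and a general rise or fall of reactivity cannot be seen in them. Depth was 5743965 to 12616275 counts per sample and 96 to 624295 counts per amplicon and sample, with a median of 40815. Of the 267 AUG A, 182 (68.2%) lay in amplicons that reached 5000 counts in all 9 samples, against 73.0% of other A. The median counts behind an AUG A were 151 in its shallowest and 512 in its deepest sample. All 267 passed the filter on low values.

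The AUG triplets were spread unevenly. The median transcript that had any held 3, and the highest number was 16 in D830031N03Rik, followed by 12 in Mbd5 and 11 each in Mapk6 and Chtop. Positions ran from 23 to 1716 with a median of 438. In 181 of 267 an in-frame stop codon was read further along the measured sequence, after a median of 11 codons counted from the AUG. For the other 86 none was read. The Kozak context was strong (a purine at position -3 and a G at +3, with the A of the AUG as 0) in 40, intermediate (either of them) in 137 and weak (neither) in 87. It was not covered in 3. Which AUG is the annotated start of the coding region was not analysed here.

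The A of AUG triplets was about as reactive as other A in cells. The median over the 267 AUG A was 8510.5, 7921 and 9009 CPM in untreated cells, 8586, 7657 and 8843 CPM after ATP depletion, and 8520, 8181 and 8927 CPM after refolding. The 3 groups overlapped. Divided by the median of other A in the same sample, these levels gave 0.979, 0.961 and 0.998 in untreated cells, 0.999, 0.948 and 1.00 after ATP depletion, and 0.900, 0.891 and 0.940 after refolding. Every refolded sample lay below all 6 in-cell samples, while the in-cell groups overlapped. The means were 0.980 ± 0.018, 0.983 ± 0.030 and 0.910 ± 0.026 (SD, n = 3 each). With each AUG A set against other A of its own amplicon they were 0.992 ± 0.022, 1.00 ± 0.018 and 0.946 ± 0.021. The full separation was not kept there, with refolded replicate 3 at 0.971 and untreated replicate 2 at 0.970.

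The median of other A rose from 8651 ± 394 CPM in untreated cells to 9380 ± 171 CPM after refolding, while that of AUG A was 8480 ± 545 and 8543 ± 374 CPM (SD, n = 3). The ratio differed by -0.069 between refolded RNA and untreated cells (two-sided exact permutation p = 0.10, 0.15 after Benjamini-Hochberg adjustment over the 3 comparisons of this ratio). It differed by -0.072 between refolded RNA and ATP-depleted cells (exact permutation p = 0.10, adjusted 0.15). Between ATP-depleted and untreated cells it differed by 0.003 (exact permutation p = 0.80, adjusted 0.80). With 3 samples against 3 the smallest p this test can give is 0.10, so none of these differences could pass 0.05.

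**Figure D1:**
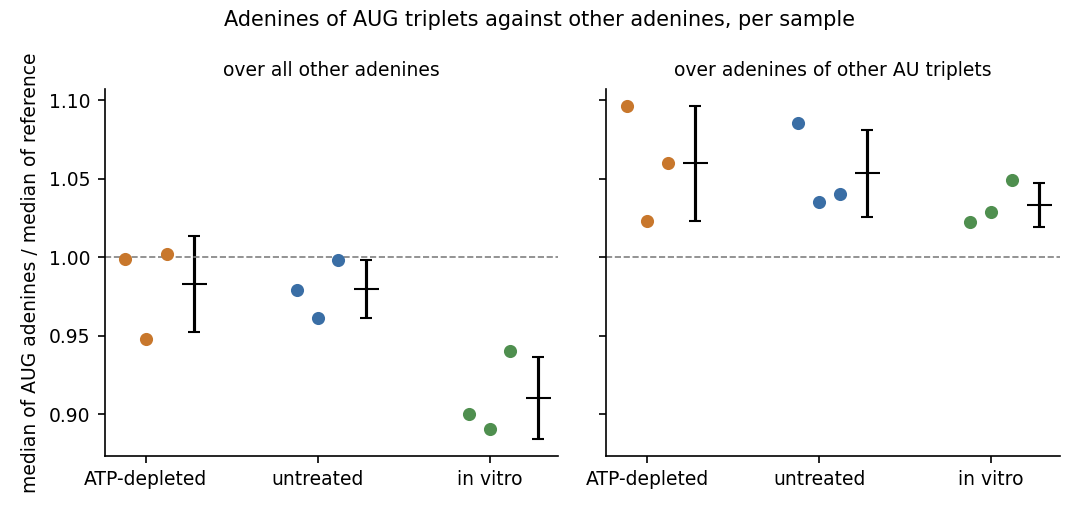
Median reactivity of AUG A divided by the median of a reference set, 1 point per sample, with the mean and SD of 3 samples as black bars; the vertical axes do not start at 0. Against all other A (left) the 3 refolded samples sit between 0.891 and 0.940, below all in-cell samples, and against A of AUA, AUC and AUU (right) all 9 samples lie above 1 and the groups overlap.

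Against the A of AUA, AUC and AUU the picture was different. AUG A were slightly more reactive in all 9 samples, with ratios of 1.05 ± 0.028 in untreated cells, 1.06 ± 0.037 after ATP depletion and 1.03 ± 0.014 after refolding (SD, n = 3). The groups overlapped. Taken within amplicons the ratio was 1.04 ± 0.021, 1.04 ± 0.011 and 0.998 ± 0.032, with refolded replicate 1 at 0.961, so the excess after refolding was not kept. In amplicons with at least 5000 counts, refolded replicate 2 stood at 0.993. This ratio differed by -0.020 between refolded RNA and untreated cells (exact permutation p = 0.40, adjusted 0.60), by -0.026 between refolded RNA and ATP-depleted cells (exact permutation p = 0.30, adjusted 0.60) and by 0.006 between the in-cell groups (exact permutation p = 0.90, adjusted 0.90). The lower ratio of AUG A to other A after refolding was thus shared by the other AU triplets, whose median was 8051 ± 537 CPM in untreated cells and 8264 ± 283 CPM after refolding.

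Ordered by level among the 16 triplets that begin with A, AUG ranked 10 of 16 in untreated cells, 9 after ATP depletion and 11 after refolding. In untreated cells its neighbours in that order were AUU at 8527 ± 901 CPM and AAU at 8382 ± 527 CPM, which did not differ from AUG beyond the spread of the samples. The highest level there was 9534 ± 614 CPM for AGG and the lowest 7629 ± 439 CPM for ACU. After refolding AUA, AUC, AUU and AUG took 4 of the 6 lowest ranks, at 8155 ± 266, 8227 ± 508, 8438 ± 541 and 8543 ± 374 CPM (SD, n = 3).

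Single AUG A varied far more than the groups did. In untreated cells the mean of 3 samples ran from 462 CPM to 20516 CPM over the 267 positions, with a median of 8651 CPM and quartiles of 6576 and 10268 CPM. After refolding the range was 896 to 40007 CPM with quartiles of 6173 and 11235 CPM, so the spread was wider. Other A widened too, from quartiles of 6531 and 11143 CPM in untreated cells to 6425 and 13273 CPM after refolding. AUG A were sparse at the reactive end, where 16.9% lay above the 75th percentile of other A in untreated cells and 12.7% did so after refolding. Below the 25th percentile of other A lay 24.3% and 27.3%. These shares were not computed for the A of AUA, AUC and AUU. Their median also lay below that of other A, at 8051 CPM in untreated cells and 8264 CPM after refolding. The sparse reactive end is therefore not shown to be particular to AUG.

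The most reactive AUG A of well covered amplicons in untreated cells was Ppm1b A141, in the transcript of a magnesium-dependent protein phosphatase. Its samples read 15954, 15351 and 16101 CPM in untreated cells, 13775, 11976 and 17591 CPM after ATP depletion, and 9363, 13136 and 16650 CPM after refolding. All groups overlapped. Klf7, which encodes a Krüppel-like transcription factor, held 2 of the 4 highest, A286 with 14984 ± 5092 CPM and A389 with 14742 ± 3769 CPM. Sertad2 A333 lay between them at 14959 ± 3060 CPM (SD, n = 3). These 4 did not differ beyond their spread, and none changed between groups by limma's test.

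The least reactive of well covered amplicons was Ddx17 A847, in the transcript of a DEAD-box RNA helicase. It read 482, 462 and 442 CPM in untreated cells, 422, 333 and 468 CPM after ATP depletion, and 2013, 1539 and 1672 CPM after refolding. It was low in every in-cell sample and higher in every refolded one, by 0.42 ± 0.08 (SE) against untreated cells on the log2(CPM + 3198) scale (limma adjusted p = 0.013). Its predicted probability of being unpaired, 0.053, compared with a median of 0.747 over all AUG A. The next lowest there were Jmjd1c A216 at 1956 ± 409 CPM and Mapk6 A462 at 2349 ± 963 CPM, which overlapped, and then Ddx17 A369.

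The bases around the AUG were compared with the same base outside all windows, as ratios of medians in each sample. C at -1 and -2 stood well above the C reference in every group. At -1 the 72 C, in 39 transcripts, had ratios of 1.47 ± 0.080 in untreated cells, 1.48 ± 0.101 after ATP depletion and 1.67 ± 0.182 after refolding (SD, n = 3), above 1 in 9 of 9 samples. At -2 the 56 C, in 33 transcripts, had ratios of 1.51 ± 0.147, 1.52 ± 0.025 and 1.44 ± 0.272, also above 1 in 9 of 9. In levels, the median C at -1 read 7018 ± 329 CPM and at -2 7208 ± 622 CPM in untreated cells, against 4775 ± 58 CPM for C outside the windows. At each of both offsets 75.0% of the C lay above the reference median (54 of 72 and 42 of 56).

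The base that follows a C bears on its reactivity, and a C at -1 is always followed by A. Against C outside the windows that were weighted to the same 3′ neighbours, the ratio at -1 was 1.24 ± 0.052 in untreated cells, 1.25 ± 0.087 after ATP depletion and 1.31 ± 0.098 after refolding, still above 1 in 9 of 9 samples. Against C at the same offset from AUA, AUC and AUU it was 1.27 ± 0.048, 1.29 ± 0.122 and 1.30 ± 0.10. At -2 the matched ratios were 1.5 ± 0.135, 1.51 ± 0.033 and 1.40 ± 0.258 for the 3′ neighbour, and 1.58 ± 0.149, 1.59 ± 0.098 and 1.47 ± 0.214 for the same offset. The excess at -2 was therefore about as large with either reference, and that at -1 was smaller with both.

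C at -4 had ratios of 1.21 ± 0.011, 1.17 ± 0.078 and 1.08 ± 0.097 in untreated, ATP-depleted and refolded samples, and 1.34 ± 0.118, 1.37 ± 0.103 and 1.27 ± 0.165 against the same offset of AUA, AUC and AUU. In untreated cells 33 of the 60 C at -4 (55.0%) lay above the median of C outside the windows. On the second reference the mean at -4 stood above that at -1 in both in-cell groups, within the spread of the samples. C at +3, the base right after the triplet, had ratios of 1.30 ± 0.052, 1.27 ± 0.014 and 1.13 ± 0.118, but 1.11 ± 0.041, 1.03 ± 0.072 and 1.07 ± 0.138 against the same offset. Most of that difference was thus shared with the other AU triplets. C at +4 went the other way, at 0.867 ± 0.036, 0.830 ± 0.142 and 0.890 ± 0.119, and at 0.770 ± 0.061, 0.759 ± 0.103 and 0.834 ± 0.055 against the same offset, where 0 of 9 samples lay above 1.

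Among A the offsets lay closer to 1. A at +4 was below 1 in 9 of 9 samples against both references, with 0.917 ± 0.035 in untreated cells, 0.924 ± 0.054 after ATP depletion and 0.811 ± 0.015 after refolding. A at -2 had ratios of 0.885 ± 0.018, 0.832 ± 0.046 and 0.864 ± 0.038, yet 1.05 ± 0.034, 0.995 ± 0.086 and 1.08 ± 0.056 against the same offset of AUA, AUC and AUU, so the direction turned with the reference. The A at -3, the purine that matters most in the Kozak context, had ratios of 1.00 ± 0.040, 1.02 ± 0.011 and 0.986 ± 0.054. Against the same offset of the other AU triplets it stood at 1.08 ± 0.028, 1.09 ± 0.027 and 1.17 ± 0.031, above 1 in 9 of 9 samples. A at +3 and +6 after refolding had ratios of 1.14 ± 0.037 and 1.17 ± 0.114. Windows of neighbouring AUG triplets can share nucleotides, and no test was run between offsets.

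**Figure D2:**
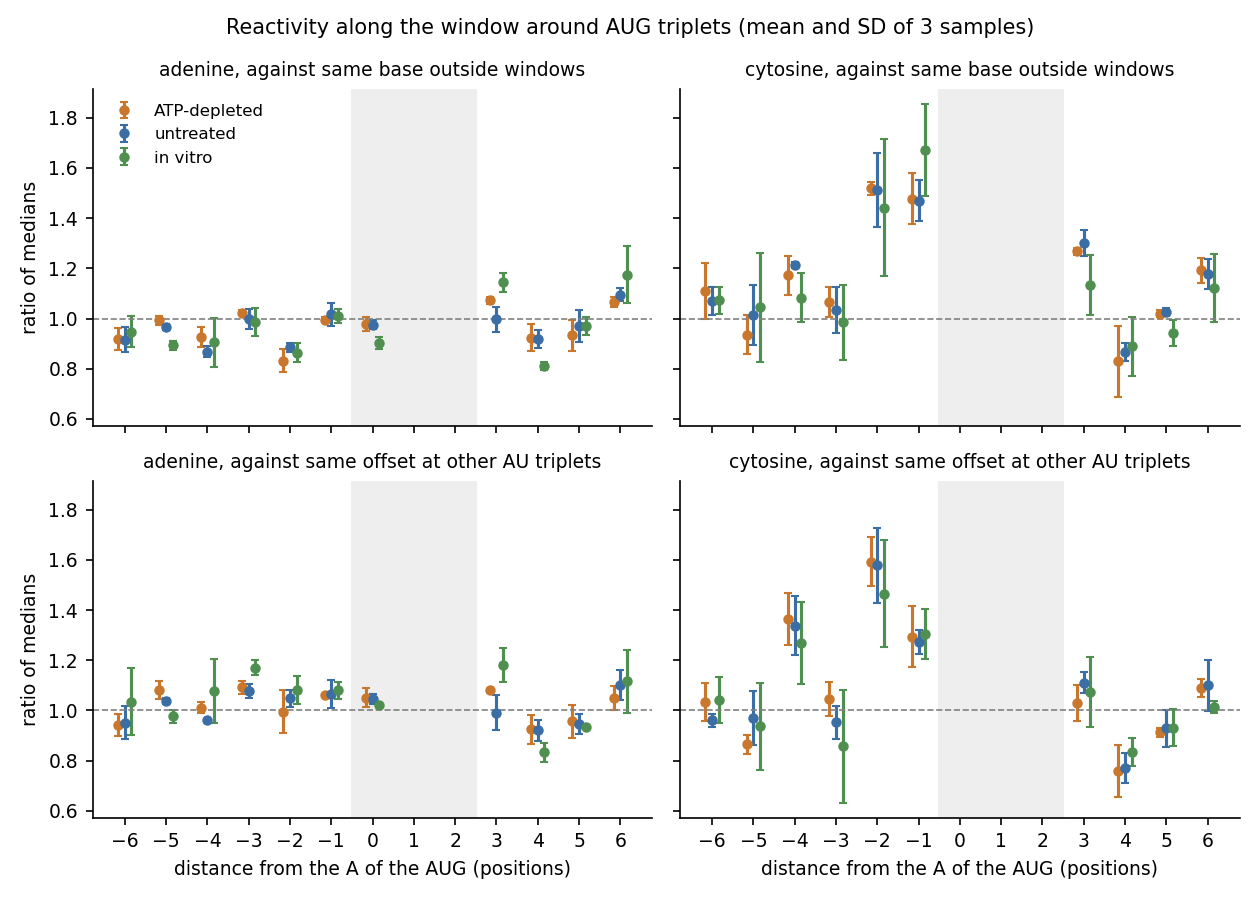
Ratio of the median reactivity at each distance from the A of the AUG (horizontal axis, positions) to the same base outside the windows (top) or at the same distance from AUA, AUC and AUU (bottom), for A (left) and C (right); points and bars are the mean and SD of 3 samples and the grey band covers the triplet. C at -2 and -1 lie above 1 in every group in both rows, and C at +4 lies below 1 in the bottom row.

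By Kozak context the median A of strong AUG triplets was 7680 ± 392 CPM in untreated cells, against 8529 ± 934 CPM for weak ones, and 8128 ± 815 against 8208 ± 338 CPM after refolding. Strong over weak gave ratios of 0.905 ± 0.071, 0.912 ± 0.042 and 0.990 ± 0.090 in untreated, ATP-depleted and refolded samples, above 1 in 2 of 9. A purine at -3 gave ratios of 0.974 ± 0.054, 0.994 ± 0.036 and 1.03 ± 0.021 over no purine. A stop codon read in frame gave 0.974 ± 0.041, 0.944 ± 0.016 and 1.01 ± 0.059 over none read. By the base after the triplet, AUG followed by U was lowest in untreated cells, at 7413 ± 607 CPM, and AUG followed by C highest, at 9005 ± 791 CPM. Strong over weak lay below 1 by more than the SD of the 3 ratios in both in-cell groups. Stop read over none read did so after ATP depletion only. Purine over no purine lay above 1 by more than its SD after refolding. No test was run on these classes.

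Predicted structure moved with the levels weakly. AUG A with the higher predicted probability of being unpaired (133 of 267, split at the median) were more reactive than the rest by ratios of 1.08 ± 0.043 in untreated cells, 1.07 ± 0.063 after ATP depletion and 1.13 ± 0.078 after refolding, above 1 in 9 of 9 samples. The same split of other A gave 1.21 ± 0.019, 1.22 ± 0.018 and 1.28 ± 0.014. Over the 267 AUG A the Pearson correlation between that probability and the level was 0.206, 0.247 and 0.197. These positions share libraries and transcripts, so the correlations are a description.

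In 10 AUG triplets of 8 transcripts the next codon was a stop, the shortest open reading frame there can be. The sequences of 4 of them show that arrangement, with the AUG in capitals and the stop right after it.
Ddx17 A498: ctgaggATGtagt
Smad6 A565: aagcccATGtagc
Nfe2l1 A284: caactaATGtgaa
N4bp2 A422: atcctgATGtagt

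The median A of the 10 was 7092 ± 979 CPM in untreated cells, 6938 ± 678 CPM after ATP depletion and 5970 ± 413 CPM after refolding. Of the 10, 1 changed by limma's test against untreated cells, Ddx17 A498, a position singled out after its values were seen, while 10.1% of all AUG A and 16.7% of all tested A and C changed. It read 10738, 14530 and 13751 CPM in untreated cells, 12502, 11903 and 12896 CPM after ATP depletion, and 4743, 4543 and 7126 CPM after refolding. All 3 refolded samples lay below all 6 in-cell ones. Smad6, whose product inhibits BMP signalling, read 7996, 6509 and 7484 CPM at A565 in untreated cells and 4144, 6884 and 6610 CPM after refolding, which overlap. After ATP depletion Smad6 A565 read 9244, 9544 and 9234 CPM, above every untreated and every refolded sample. Its difference between ATP-depleted and untreated cells was not called.

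ATP depletion was compared with untreated cells first among the comparisons of single nucleotides. No AUG A passed limma's test at an adjusted p of 0.05, and neither did any of the 13542 tested A and C (0.00%). The test can miss small changes. Of 200 log2 changes of 0.5 planted among 13542 positions in simulated refolded samples it called 0. No change was planted in ATP-depleted samples, so the simulation does not give the sensitivity of this comparison. In the data smaller refolding changes were called, such as 0.37 at an AUG A of D830031N03Rik (limma adjusted p = 0.046). At an unadjusted p under 0.05 there were 5 of 267 AUG A (1.87%), against 3.17% of other A and 4.02% of all tested A and C. The median change was -0.022 on the log2(CPM + 3198) scale over AUG A and -0.025 over all tested A and C. The replicates of both groups were fully separated at 7 AUG A with the ATP-depleted samples higher and at 12 with them lower (2.62% and 4.49%), against 4.86% and 6.51% of other A. Levels of the 267 in the 2 groups had a Pearson correlation of 0.864, against 0.903 over other A, as a description.

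Among the 5 AUG A with an unadjusted p under 0.05, the 2 largest differences in each direction are given, none past the threshold. Stox2 A1248 read 15019, 10685 and 11838 CPM after ATP depletion and 6064, 5635 and 6056 CPM in untreated cells. The groups did not overlap, and the difference was 0.78 ± 0.18 (SE) on the log2 scale (limma adjusted p = 1.00, unadjusted 0.0026). Ddx17 A369 differed by 0.36 ± 0.15 in the same direction. Lower after ATP depletion were D830031N03Rik A1076, with 4760, 2611 and 4865 against 8959, 5368 and 11905 CPM, and Ppp1r10 A355, with 1397, 2633 and 1587 against 6957, 2780 and 3464 CPM. Ppp1r10 encodes a regulatory subunit of protein phosphatase 1. Both pairs of groups were separated, by -0.69 ± 0.22 and -0.55 ± 0.20, with limma adjusted p of 1.00 for each.

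Refolded RNA differed from untreated cells at more positions. Of the 267 AUG A, 27 changed by limma's test, 15 higher and 12 lower after refolding. That is 10.1%, against 16.7% of all tested A and C, 14.5% of other A and 10.0% of the A of AUA, AUC and AUU. The share was thus below that of other A and near that of the other AU triplets. The median standard error was 0.183 for AUG A, 0.162 for other A and 0.166 for AUA, AUC and AUU, and the median SD of refolded replicates was 0.276 over AUG A and 0.219 over all tested nucleotides. The part of this lower precision in the count was not tested. The count fell to 15 without untreated replicate 2.

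The called directions of AUG A differed from those of other A as well. Of AUG A 5.62% rose and 4.49% fell, whereas 10.3% of other A rose and 4.20% fell, and 8.09% and 8.57% of all tested A and C. The A of AUA, AUC and AUU were close to AUG A, with 5.88% higher and 4.16% lower. The median change was -0.01 over AUG A, 0.10 over other A and 0.03 over AUA, AUC and AUU. In the windows 53 of 674 other A rose and 26 fell, while 32 of 560 C rose and 63 fell. C outside the windows did the same, with 6.67% higher and 11.8% lower. Fully separated replicates were seen at 41 AUG A with refolded samples higher and 28 with them lower (15.4% and 10.5%), against 23% and 9.35% of other A. For the A of AUA, AUC and AUU these shares were 15.9% and 9.60%. Levels in untreated cells and refolded RNA correlated less over AUG A (Pearson 0.604) than over other A (0.757) or AUA, AUC and AUU (0.807). These correlations are a description.

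**Figure D3:**
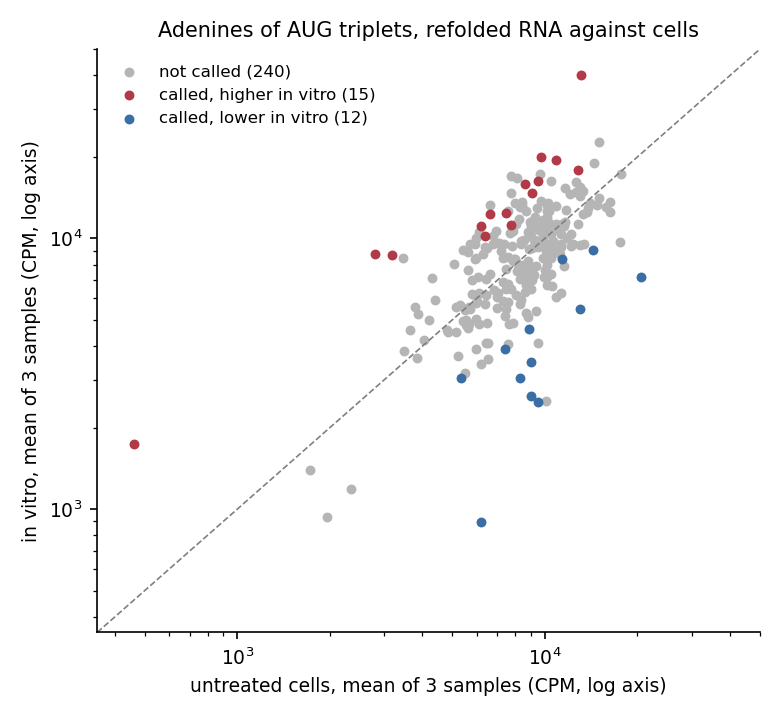
Each point is 1 of 267 AUG A, with its mean reactivity over 3 untreated samples (horizontal) and 3 refolded samples (vertical), in CPM on log axes; the dashed line marks equal levels. The 15 called rises lie above the line and the 12 called falls below it, with Ext1 A312 at the top, at 13075 and 40007 CPM.

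Of the rises, the largest was Ext1 A312. Ext1 encodes a glycosyltransferase that builds heparan sulfate. It read 12654, 13603 and 12968 CPM in untreated cells, 12801, 13595 and 13459 CPM after ATP depletion, and 38576, 44257 and 37188 CPM after refolding. The in-cell groups overlapped closely, and all refolded samples lay far above them. Against untreated cells the change was 1.41 ± 0.09 (SE) on the log2(CPM + 3198) scale (limma adjusted p = 0.00023), from 1693 to 3989 counts per sample. The frame that starts there ends after 2 codons.

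Ddx17 A369 was low in cells and higher after refolding. It read 2455, 2551 and 3405 CPM in untreated cells, 4709, 4069 and 4727 CPM after ATP depletion, and 10889, 8949 and 6473 CPM after refolding. The 3 groups did not overlap. The change from untreated cells was 0.98 ± 0.15 (limma adjusted p = 0.0045). It was read in 2 overlapping amplicons, with changes of 0.87 and 1.08.

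R3hdm1 A434 behaved alike at lower depth. Its samples read 1324, 3707 and 4520 CPM in untreated cells, 2744, 3073 and 4018 CPM after ATP depletion, and 9718, 8231 and 8199 CPM after refolding, on 6 to 486 counts. The refolded samples were all higher than the in-cell ones, which overlapped. The change was 0.93 ± 0.19 (limma adjusted p = 0.015), and in a fit of the 6 compared samples alone the adjusted p was 0.052.

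Azin1 encodes antizyme inhibitor, which frees ornithine decarboxylase for polyamine synthesis. Its A249 read 10924, 9011 and 9148 CPM in untreated cells, 10078, 9626 and 10743 CPM after ATP depletion, and 23340, 19428 and 17161 CPM after refolding. Every refolded sample was above every in-cell sample. The change was 0.74 ± 0.11 (limma adjusted p = 0.0040), but its 2 readings gave 0.94 and 0.55, and from the deeper amplicon alone the adjusted p was 0.10.

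Ptp4a2 A100, in the transcript of a protein tyrosine phosphatase, read 8728, 8703 and 8523 CPM in untreated cells and 15175, 16493 and 16148 CPM after refolding, with ATP-depleted cells at 8162, 7550 and 10025 CPM. D830031N03Rik A658 read 9662, 11445 and 11490 CPM in untreated cells and 17963, 22212 and 18483 CPM after refolding, with ATP-depleted cells at 11838, 9624 and 11967 CPM. Both rose with no overlap between refolded and in-cell samples. The changes were 0.69 ± 0.10 and 0.68 ± 0.12 (limma adjusted p = 0.0042 and 0.0072). The first of these AUG has a weak Kozak context and the second an intermediate one.

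Most of the falls rested on few counts in refolded samples. Mbd5, whose product carries a methyl-CpG-binding domain, held 2 of the 6. At A1263 its samples read 8776, 8754 and 10888 CPM in untreated cells, 6982, 8046 and 8014 CPM after ATP depletion, and 1259, 2200 and 4005 CPM after refolding, on 4 to 988 counts. The 3 groups were separated. The change was -1.18 ± 0.17 (limma adjusted p = 0.0042).

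At Mbd5 A803 the samples read 7234, 8214 and 9479 CPM in untreated cells and 5111, 1718 and 2341 CPM after refolding, with ATP-depleted cells at 7467, 4618 and 5859 CPM. Refolded samples were below untreated ones but overlapped the ATP-depleted ones. The change was -0.91 ± 0.21 (limma adjusted p = 0.021). The adjusted p rose above 0.05 without untreated replicate 2 (0.063) or 3 (0.069) and without refolded replicate 2 (0.052) or 3 (0.054).

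Dicer1 encodes the ribonuclease that cuts microRNA precursors. Its A298 read 10907, 4254 and 3476 CPM in untreated cells, 4994, 4157 and 6544 CPM after ATP depletion, and 955, 243 and 1488 CPM after refolding. The refolded samples were all lowest, but the counts were 0 to 101 and the CPM hold a prior count of 0.5. The change was -1.13 ± 0.28 (limma adjusted p = 0.028). The adjusted p was 0.050 without untreated replicate 2, 0.059 without refolded replicate 1 and 0.072 without refolded replicate 2.

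Mapk6 encodes an atypical MAP kinase. Its A171, with a strong Kozak context, read 9329, 22986 and 29233 CPM in untreated cells, 9926, 13693 and 13078 CPM after ATP depletion, and 7625, 7293 and 6668 CPM after refolding. Refolded samples were lowest, and the untreated samples were far apart. The change was -1.08 ± 0.31 (limma adjusted p = 0.048), and the call was lost when any library other than untreated replicate 1 was left out (adjusted p 0.066 to 0.14).

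Bcl2, which encodes an inhibitor of apoptosis, read 13427, 8103 and 5508 CPM at A810 in untreated cells, 12910, 7495 and 10289 CPM after ATP depletion, and 3341, 1351 and 3161 CPM after refolding. No refolded sample reached an in-cell one. The change was -1.04 ± 0.26 (limma adjusted p = 0.032). The adjusted p was 0.053 without ATP-depleted replicate 3, 0.077 and 0.080 without untreated replicates 1 and 2, and 0.081 and 0.051 without refolded replicates 2 and 3.

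Cnot3 encodes a subunit of the CCR4-NOT complex, which shortens poly(A) tails. Its A336 read 9556, 8878 and 8639 CPM in untreated cells, 10364, 8000 and 9854 CPM after ATP depletion, and 4869, 738 and 4879 CPM after refolding. Refolded samples were all lower, with replicate 2 far below the others. The change was -0.94 ± 0.26 (limma adjusted p = 0.042), and without any single in-cell library the adjusted p was 0.063 to 0.11.

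**Figure D4:**
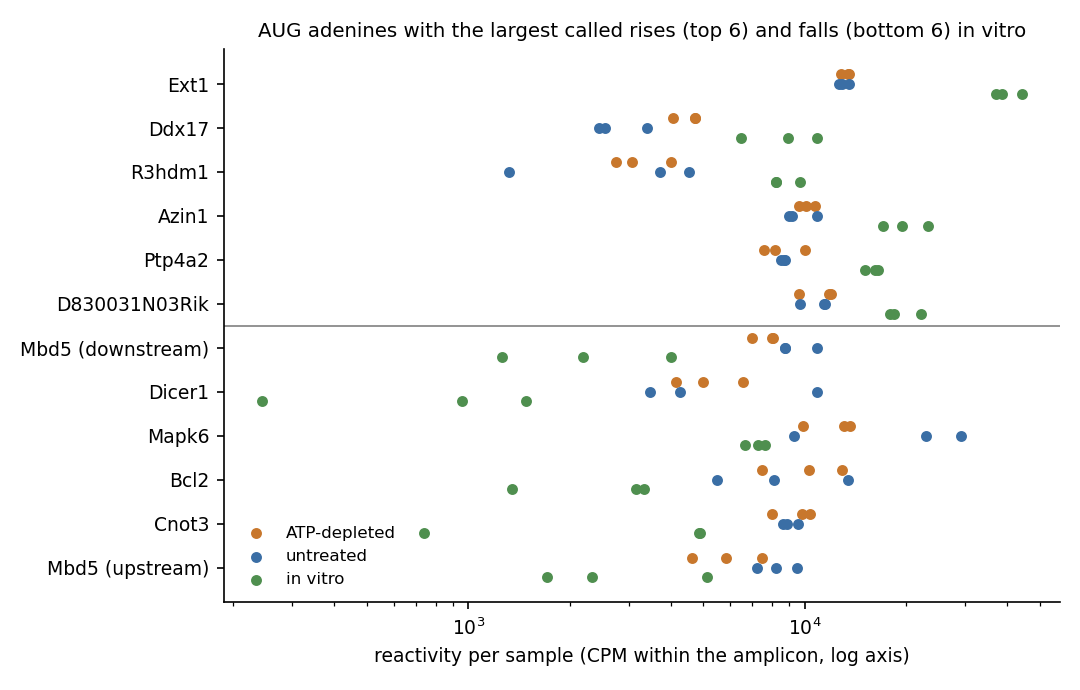
Reactivity in each sample (points, CPM, log axis) of the 6 AUG A with the largest called rises and the 6 with the largest called falls after refolding, 1 row per position; Mbd5 (downstream) is A1263 and Mbd5 (upstream) A803. Refolded samples of Ext1 reach 44257 CPM, and those of Dicer1 go down to 243 CPM.

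Refolded RNA against ATP-depleted cells uses the same refolded samples, so this comparison is not independent of the previous one. Of 267 AUG A 28 changed (10.5%), 16 higher and 12 lower, against 15.3% of all tested A and C, 13.9% of other A and 8.32% of the A of AUA, AUC and AUU. By direction 5.99% of AUG A rose and 4.49% fell, against 10.6% and 3.32% of other A and 8.46% and 6.82% of all tested. Of the A of AUA, AUC and AUU 5.88% rose and 2.44% fell. The median change was 0.04 over AUG A, 0.11 over other A and 0.02 over all tested. The number of AUG A called was 10, 11 and 13 without ATP-depleted replicates 1, 2 and 3, and 17 without refolded replicate 1. Ext1 A312 rose by 1.39 ± 0.09 (limma adjusted p = 0.00025) and R3hdm1 A434 by 0.88 ± 0.19 (limma adjusted p = 0.020). For R3hdm1 the adjusted p was 0.069, 0.072 and 0.055 without ATP-depleted replicate 1 or 2 or refolded replicate 1.

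The falls from ATP-depleted cells rested on shallow libraries too. The largest was at position 521 of the transcript that matched no gene symbol, with 9521, 9540 and 15387 CPM after ATP depletion and 1728, 311 and 5503 CPM after refolding. These groups were separated, whereas untreated cells, at 17166, 5463 and 7592 CPM, reached down to the refolded range. The change was -1.44 ± 0.40 (limma adjusted p = 0.046), and without any single library other than untreated replicate 1 or refolded replicate 3 the adjusted p was 0.052 to 0.14. Bcl2 A810 fell by 1.21 ± 0.26 and Dicer1 A298 by 1.04 ± 0.28 on the same scale (limma adjusted p = 0.020 and 0.038). For Bcl2 the adjusted p was 0.067, 0.064 and 0.052 without ATP-depleted replicate 1 or 3 or refolded replicate 2. For Dicer1 it was 0.052 to 0.12 without any single ATP-depleted or refolded library or untreated replicate 2.

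Beside the 267 AUG A the windows held 1234 other A and C, and the largest changes after refolding lay among these. Ddx17 A514, 3 positions after the A of its AUG, read 6596, 6940 and 6720 CPM in untreated cells, 7149, 7096 and 8702 CPM after ATP depletion, and 33665, 33145 and 24032 CPM after refolding. The refolded samples lay far above the in-cell ones. The change from untreated cells was 1.74 ± 0.13 (limma adjusted p = 0.00040).

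In Cnot3 the window held changes of opposite direction. While A336 of the AUG fell, A340, 4 positions on, read 13211, 7939 and 9695 CPM in untreated cells and 38465, 23724 and 35865 CPM after refolding. Every refolded sample was higher. The change was 1.41 ± 0.20 (limma adjusted p = 0.0038). Hipk3 A296, at +3 in the transcript of a homeodomain-interacting protein kinase, rose from 15820 ± 3275 to 45022 ± 6929 CPM, and Chtop C330, at +4, from 10835 ± 970 to 28997 ± 6935 CPM (SD, n = 3). Neither pair of groups overlapped.

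Of the falls beside an AUG, Dicer1 A277 at -3 was the largest. It read 23801, 13192 and 20254 CPM in untreated cells, 9018, 7909 and 11870 CPM after ATP depletion, and 3078, 2189 and 4621 CPM after refolding. The 3 groups were separated. The change from untreated cells was -1.76 ± 0.22 (limma adjusted p = 0.0022), on 4 to 253 counts.

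Mapk6 C176, 5 positions after the A171 described above, fell with it. It read 6541, 15068 and 14595 CPM in untreated cells and 2366, 935 and 1169 CPM after refolding, with no overlap. The change was -1.66 ± 0.29 (limma adjusted p = 0.0076).

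Tle4 A631, at +6 in the transcript of a Groucho-family corepressor, was among the strongest A of the windows, at 80551, 58152 and 70665 CPM in untreated cells, 74145, 67710 and 68307 CPM after ATP depletion, and 25167, 11697 and 29042 CPM after refolding. The refolded samples lay well below the in-cell ones. The change was -1.59 ± 0.26 (limma adjusted p = 0.0064), and its 2 readings gave -1.22 and -1.97.

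Sema6a A562, at -5 in the transcript of a transmembrane semaphorin, read 19970, 3888 and 8223 CPM in untreated cells and 483, 2298 and 1474 CPM after refolding, on 1 to 208 counts. Its groups were separated, with untreated samples far apart. The change was -1.44 ± 0.41 (limma adjusted p = 0.048), and without any single library other than untreated replicate 2 the adjusted p was 0.058 to 0.11.

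For the 47 AUG A that were read in 2 amplicons, the 2 readings of the change from untreated cells to refolded RNA had the same sign in 35, and 5 were called in both, all in the same direction. Another 5 were called in 1 reading only. For the change from untreated to ATP-depleted cells the sign was the same in 21 of 47. The Pearson correlation between readings was 0.655 and 0.325, as a description over amplicons of the same samples.

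Transcripts differed in how their AUG A compared with their own other A. Among the 24 transcripts with at least 5 AUG, those of Azin1 (8 AUG) stood above 1 in 9 of 9 samples, at 1.31 ± 0.025 in untreated cells, 1.28 ± 0.053 after ATP depletion and 1.41 ± 0.158 after refolding. Tulp4 (6 AUG) did so too, at 1.36 ± 0.118, 1.24 ± 0.226 and 1.26 ± 0.083. Ddx17 (8 AUG) was above 1 in 8 of 9, with 1.23 ± 0.035 and 1.22 ± 0.093 in untreated and ATP-depleted cells, and 1.01 ± 0.052 after refolding. At the other end, Brd2, Hipk3, Ehbp1, Chtop and Ext1 were below 1 in 9 of 9 samples. Brd2, which encodes a bromodomain protein of acetylated chromatin, had 0.742 ± 0.029, 0.822 ± 0.10 and 0.666 ± 0.135 (SD, n = 3).

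Other transcripts differed between groups more than among replicates. Mapk6 (11 AUG) had ratios of 1.07 ± 0.152 in untreated cells, 1.13 ± 0.038 after ATP depletion and 0.782 ± 0.018 after refolding. Chtop (11 AUG) had 0.985 ± 0.014, 0.918 ± 0.049 and 0.724 ± 0.039. In both the refolded samples were lowest, and the pattern was seen after the ratios were computed and has no test of its own. D830031N03Rik, with the most AUG, stayed near 1 at 0.983 ± 0.047, 0.989 ± 0.053 and 0.963 ± 0.081.

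**Figure D5:**
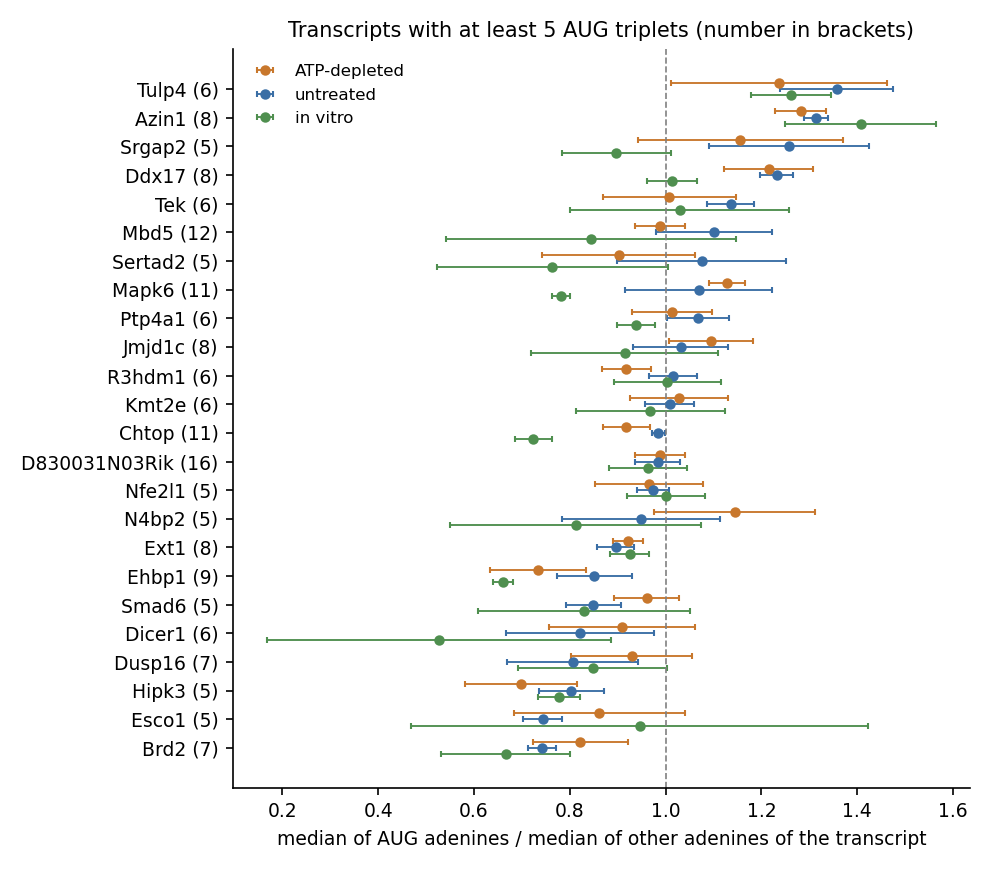
Median reactivity of AUG A divided by the median of other A of the same transcript (horizontal axis, ratio), for the 24 transcripts with at least 5 AUG triplets, their number in brackets; points and bars are the mean and SD of 3 samples. Azin1 and Tulp4 stand above 1 in all groups, and Brd2, Hipk3 and Ehbp1 below 1.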

How the data were processed

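The table the authors deposited holds log2 values per nucleotide and sample. Per the submitters' processing notes bcl2fastq, Bowtie2 and limma were used; of the mutation counter, the settings and the reference, the sources used here say nothing. In 1449 of 1449 amplicon-by-sample libraries the values were whole numbers plus a prior count of 0.5, scaled to CPM (tolerance 0.0001); these are taken to be mutation counts. They come from amplified cDNA, so intervals from counts would cover counting error only. Amplicons with under 5000 counts in a sample are shallow. No sample without DMS was analysed here, and how the refolded RNA was exposed to DMS is not described in the labels. The labels call the 3 samples of a group independent.

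CPM were recovered as 2 to the deposited value, and overlapping readings were averaged (for CPM arithmetically, for tests on the log2 scale). Changes are on log2(CPM + 3198), a pseudocount of 0.5 times the pooled median, which understates changes of weak nucleotides. limma 3.58.1 (R 4.3.3) fitted 13542 A and C positions with counts, 5721 A and 7821 C, in all 9 samples, with 1 mean per group; adjusted p is Benjamini-Hochberg over all, with a threshold of 0.05. Ratios of sample medians were compared by two-sided exact permutation. The script was tested on simulated data. Of 200 changes planted in refolded samples, limma called 0 at 0.5, 126 at 1 and 176 at 1.5 on the log2 scale. Unpaired probability came from RNAplfold (ViennaRNA 2.7.2, window 150, span 100) on each contiguous stretch of measured transcript sequence, overlapping amplicons joined. Python 3.11.15, pandas 2.3.3 and numpy 2.4.6 were used.

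The plan assumed linear reactivities. Members, lists and tests were chosen with earlier results of these data known. Named positions follow a rule: the 6 largest called, non-overlapping rises and falls at AUG A against untreated cells, 3 each against ATP-depleted cells, 2 each for ATP depletion at unadjusted p under 0.05, the 4 highest and lowest AUG A of deep amplicons, and 4 rises and falls beside an AUG. Of these, 1 position is not reported here. Its clause on annotated start codons was not applied, since no protein sequences were used here. Added after seeing the data were the references with the same 3′ base and the same offset from AUA, AUC and AUU. Symbols came from RefSeq (GRCm38.p6) for 68 of 69 transcripts. Transcript positions matched the RefSeq start sequence in 8 of 8 transcripts checked, and genome coordinates are not given. Replicate numbers were not used to pair the samples in the main fit. Deviations of same-numbered samples correlated at -0.023 to 0.090. Between ATP-depleted and untreated cells these were 0.034, 0.090 and 0.030, against -0.045 to 7.4e-05 for unlike numbers. A weak pairing of the in-cell samples is therefore not excluded.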

Additional observations from a re-analysis of the deposited data

Results flagged for a closer look

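The U and G of the AUG triplets lie outside the members described above, which are A and C. They are listed here because they carried signal. In untreated cells the median U of AUG read 5330 CPM (SD 699, n = 3), against 3856 ± 455 CPM for other U, a ratio of 1.38 ± 0.069. The ratio was 1.43 ± 0.054 after ATP depletion and 1.49 ± 0.017 after refolding. Against the U of AUA, AUC and AUU it was 1.13, 1.14 and 1.09. The median G of AUG read 869 CPM (SD 65.4, n = 3) in untreated cells, against 838 ± 24.9 CPM for other G. For scale, the median of all C in untreated cells was 4826 ± 46.0 CPM. The source of mutations at U and G was not tested.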

How the results depend on the processing

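Over all A and C, 2256 positions changed after refolding against untreated cells and 2070 against ATP-depleted cells. These counts were 1103 and 1128 among positions at or above the median CPM, 1184 and 1378 with only the 6 compared samples, and 758 and 731 with A alone. They ranged from 1260 to 2111 and from 947 to 1994 when a replicate was left out (lowest without untreated replicate 2 and ATP-depleted replicate 2; 1334 without untreated replicate 3, 1209 and 1100 without ATP-depleted replicates 1 and 3). The split was 1095 higher of 2256, 809 of 1103 above the median CPM, 542 of 758 for A, and 741 of 2235 with amplicons divided by their mean (against ATP-depleted cells 1146 of 2070, 866 of 1128, 551 of 731 and 688 of 1974). AUG A calls were 13 and 18 with only 6 samples, 15 to 32 and 10 to 27 without a replicate; divided by amplicon means, 13 of 32 and 10 of 30 were higher. No call was made after ATP depletion under any setting. The cause was not tested.

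The ratio of AUG A to other A, ATP-depleted minus untreated, turned to -0.0014 for means of log2, -0.011 without 25 positions at amplicon ends, -0.0021 with each reading alone and -0.010 in amplicons with at least 5000 counts; that to AUA, AUC and AUU turned to -0.0039 and -0.014 in the second and last. Without a replicate the differences ran from -0.0063 to 0.021, -0.084 to -0.059 and -0.090 to -0.063 for other A, and from -0.012 to 0.025, -0.029 to -0.0042 and -0.045 to -0.0082 for AUA, AUC and AUU (ATP-depleted minus untreated, refolded minus untreated, refolded minus ATP-depleted). With a replicate block 1906 and 1693 positions and 25 and 24 AUG A were called. Of 30 named results 17 stayed on the same side of the threshold under all alternatives, 13 lost it under at least 1 and 0 reversed.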

Other observations

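Position and base composition were examined as further features of the AUG A. Those from position 100 to before position 300 of the transcript read 8899 ± 277 CPM in untreated cells (54 AUG) and those at 300 or more 8389 ± 612 CPM (203 AUG), a ratio of 1.06 ± 0.051. After ATP depletion that ratio was 0.990 ± 0.039 and after refolding 1.08 ± 0.028 (SD, n = 3). AUG A with a G and C content at or below the median around them read 8532 ± 609 CPM in untreated cells, and those above it 8576 ± 486 CPM. The ratios of these sets were 0.994 ± 0.023, 0.996 ± 0.042 and 0.971 ± 0.039 in untreated, ATP-depleted and refolded samples.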
